A study of Mus musculus with 6 samples.

Results

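The retinoid binding protein genes Crabp1 and Crabp2 and the retinoid receptor genes Rara, Rarg and Rxra were followed through 6 RNA libraries of ETX-embryos, embryo-like structures that self-assemble when mouse ES cells, trophoblast stem cells and XEN (extraembryonic endoderm) cells are grown together. The members were taken by exact gene name, and all 5 were among the 12826 genes of the deposited table, whose genes all pass 1 FPKM somewhere (the smallest of their maxima is 1.003). FPKM scales fragments by transcript length and library depth, so levels of different genes can be set side by side. Every structure carried a T/Brachyury-GFP reporter, was grown in sequential IVC media and received no treatment. The trophoblast part was removed, and the embryonic part was divided lengthwise into a GFP-negative piece, the prospective anterior domain, and a GFP-positive piece, the prospective posterior domain. Individuals A, B and C gave 1 Smart-seq2 library for each domain, so there were 3 anterior and 3 posterior libraries, and values below run in the order A, B, C. The genes were selected on results of the comparison of anterior with posterior pieces in these same libraries, so their values in it are descriptions and carry no test.

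Retinoic acid is made from vitamin A inside some cells and acts on neighbouring ones. CRABP1 and CRABP2 are small cytosolic proteins that hold it: CRABP2 is known for carrying it to the receptors in the nucleus, and CRABP1 for holding it in the cytosol, where it can be handed to CYP26 enzymes for breakdown. The receptors RARα and RARγ (Rara, Rarg) bind retinoic acid and sit on DNA as pairs with an RXR such as RXRα (Rxra), which also pairs with other nuclear receptors. In the gastrulating embryo the pathway is known for its part in the patterning of the body axis.

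The anterior libraries were shallower than their posterior partners. Low FPKM values lay on steps, and in anterior A the 1251 genes with a single annotated transcript showed a first step of 36 genes in a window of 0.2 log2 and a next one at double the level (41 genes), with 3 and 4 genes in equally wide windows beside the first. Taking the first step as 1 read, anterior A had 0.373 FPKM for 1 read on 1 kb of transcript. The same quantity was 0.265 and 0.260 FPKM in anterior B and C and 0.170, 0.132 and 0.239 FPKM in the 3 posterior libraries, and a lower value means a deeper library. Between 5.34% and 27.2% of genes were listed at 0, with the highest share in the library labelled anterior C. T, whose reporter told the pieces apart, was undetected (0) in anterior A and B and was at 5.03 and 15.6 FPKM in posterior A and B, but the library labelled anterior C held 42.5 FPKM and the one labelled posterior C held 0. Other primitive streak genes of embryo C ran with its labels: Mixl1 was at 0 FPKM in the piece labelled anterior and 30.4 in the one labelled posterior, Wnt3 at 0.896 and 70.1, and Fgf8 at 0 and 57.9. Of the 10 streak markers T alone was higher in the piece labelled anterior, and Gsc was at 0 in both. In bulk pieces, fewer cells that express a gene and less RNA per cell cannot be told apart.

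Crabp1 (chromosome 9, 54764748 to 54773110, GRCm38) was the member with the highest level in any library. Anterior A held 205 FPKM of it, anterior B 57.6 and the library labelled anterior C 0.444. Its posterior levels were 4.34 FPKM in A, 7.64 in B and 0 in the library labelled posterior C. Anterior A and B were thus the high libraries, posterior A and B intermediate, and both libraries of embryo C low, and the domains overlapped through embryo C alone. Among the 12826 genes of each library it ranked at percentile 98.0 in anterior A and 88.4 in anterior B, against 39.6 and 53.2 in posterior A and B. The anterior level was 47.3 times the posterior one in embryo A and 7.54 times in embryo B. Read support followed the level, with about 441 and 174 reads in anterior A and B, about 20 and 47 in posterior A and B, and about 1 in the library labelled anterior C, where 3 reads would be about 0.974 FPKM.

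Crabp2 (chromosome 3, 87948693 to 87953372) had a different distribution. Anterior A and B were both listed at 0 FPKM, while the library labelled anterior C held 27.7 FPKM. The posterior libraries held 92.8 FPKM in A, 29.8 in B and 0.940 in the library labelled posterior C. Crabp2 was therefore high in posterior A, posterior B and the library labelled anterior C, and the domains overlapped. With about 508, 211 and 99 reads in those 3 libraries, none of the high values rested on a handful of reads, while the library labelled posterior C had about 4. In anterior A and B, 3 reads would be about 1.20 and 0.854 FPKM, so a level below these could have been missed.

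**Figure D1:**
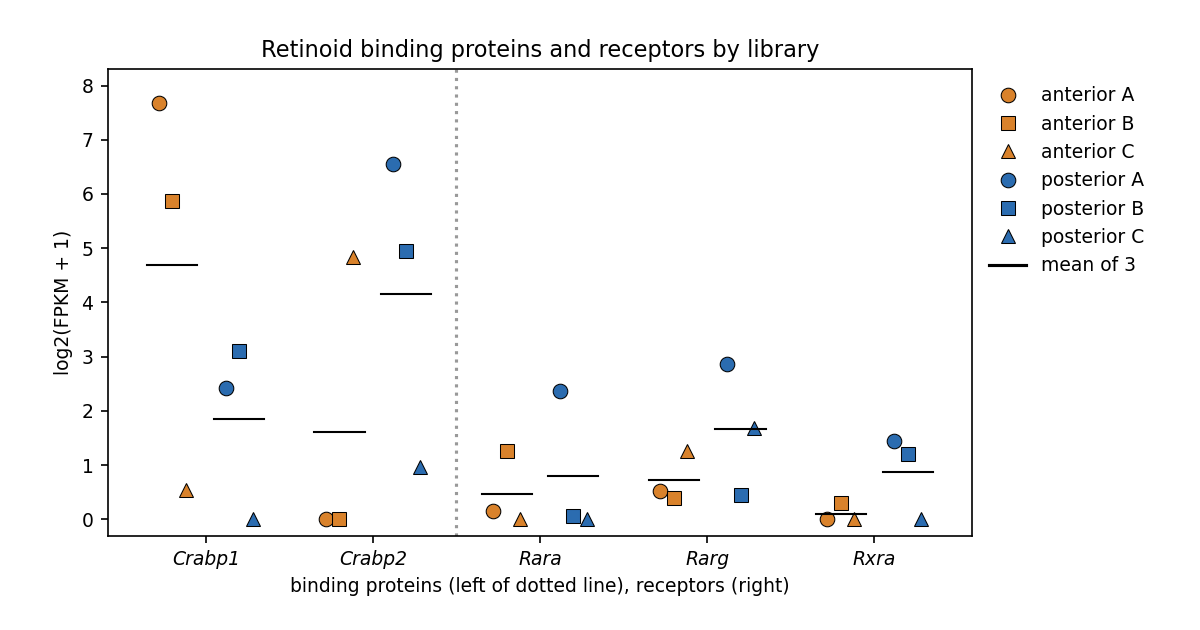
The vertical axis gives each member's log2(FPKM + 1), with 1 point for each library, for anterior (orange) and posterior (blue) pieces, with a circle for embryo A, a square for B, a triangle for C and the mean of each trio as a line. Crabp1 is highest in anterior A (7.69), Crabp2 is at 0 in anterior A and B and highest in posterior A (6.55), and no receptor exceeds 2.86.

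The 2 binding protein genes divided the libraries between them. Crabp2 made up 0% of their summed FPKM in anterior A and B, 98.4% in the library labelled anterior C, 95.5% and 79.6% in posterior A and B, and 100% in the library labelled posterior C, where the sum was only 0.940 FPKM. This share does not move with a factor common to all genes of a library. In embryos A and B the anterior piece carried Crabp1 and no listed Crabp2, and the posterior piece carried both with Crabp2 in excess. The summed level of both genes was 205, 57.6 and 28.2 FPKM in the anterior libraries of A, B and C and 97.2, 37.4 and 0.940 FPKM in the posterior ones. Across the 6 libraries the log2 values of Crabp1 and Crabp2 had a Pearson correlation of -0.52 (Spearman -0.46), a description over 6 libraries from 3 individuals that also differ in depth.

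The libraries with Crabp2 above 20 FPKM were the same 3 in which T was above 0. T stood at 42.5, 5.03 and 15.6 FPKM in the library labelled anterior C, posterior A and posterior B, where Crabp2 stood at 27.7, 92.8 and 29.8, so the order within the 3 differed. The library labelled posterior C held 240 FPKM of streak markers with Crabp2 at 0.940 FPKM, and of the 44.8 FPKM in the library labelled anterior C, T made up 42.5. Crabp1 shared its low libraries with Rbp4, the secreted plasma carrier of retinol and a visceral endoderm gene, which stood at 395 and 570 FPKM in anterior A and B, 75.3 and 94.6 in posterior A and B, and 0 in both libraries of embryo C. Over the 6 libraries Pearson's r was 0.83 for Crabp2 with T and 0.90 for Crabp1 with Rbp4 (Spearman 0.71 and 0.93). These 2 pairs were picked after their values were seen.

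**Figure D2:**
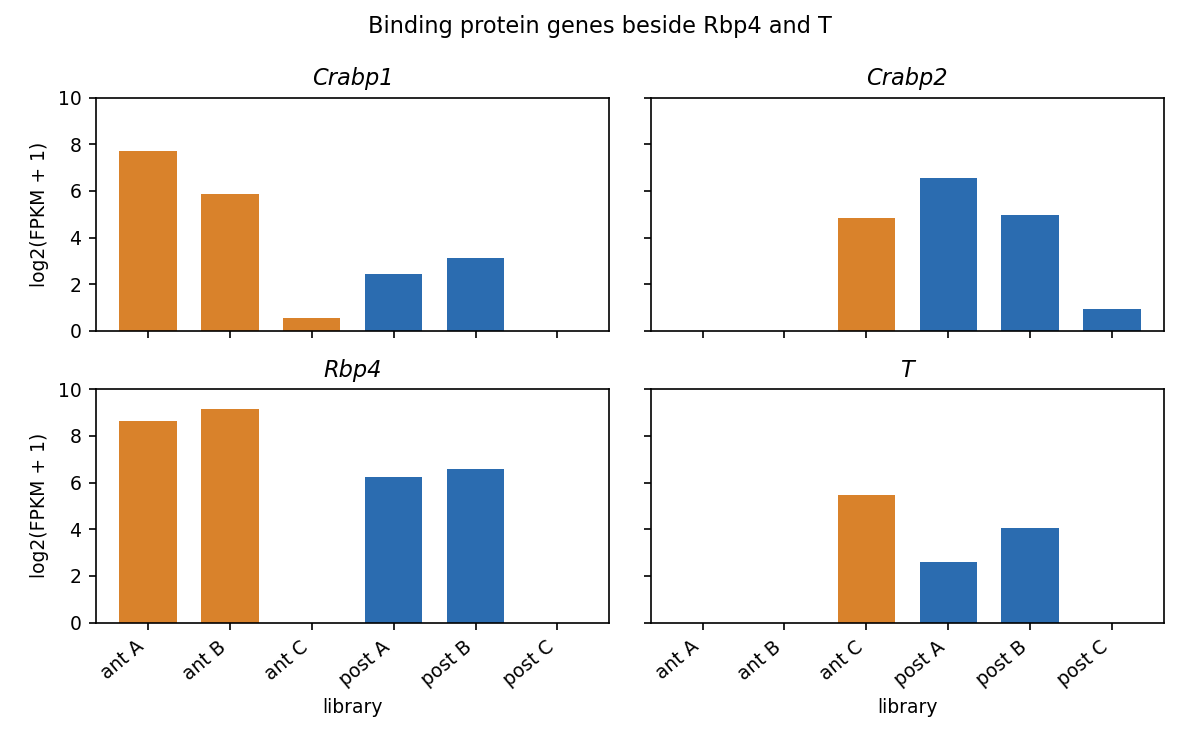
Levels of Crabp1, Crabp2, Rbp4 and T in log2(FPKM + 1) on the vertical axis, 1 bar per library (anterior orange, posterior blue), with no bar where a gene is listed at 0. Crabp1 and Rbp4 are highest in anterior A and B and lowest in embryo C, and Crabp2 is high in the 3 libraries with T above 0.

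Markers of other cell types also differed between these libraries. Of 14 visceral endoderm markers 12 were present, of which 11, 11 and 3 were above 0 anteriorly and 10, 12 and 8 posteriorly. Their summed level ran from 125 to 956 FPKM in the anterior libraries (740.5 and 956 in A and B) and from 135 to 209 FPKM in the posterior ones. Rbp4 itself is on this list and gave 395 and 570 FPKM of the sums in anterior A and B, and Lrp2 gave 107 of the 125 FPKM in the library labelled anterior C. By gene, 5 of the 10 markers in the fit were higher in each domain, where 64.9% of all genes tested were higher posteriorly. Their median difference was -0.41, beside 0.43 over all genes tested. The list's mean log2(FPKM + 1) was 3.77, 4.40 and 0.93 anteriorly and 2.53, 3.21 and 2.35 posteriorly, so embryo C ran opposite to A and B. Ttr, Cubn, Amn, Sox17 and Gata4 were at 0 in the library labelled anterior C. The 10 parietal endoderm and XEN markers summed to 1039.6, 1657 and 321 FPKM anteriorly and 334, 264 and 684 FPKM posteriorly. Embryo C thus ran opposite to A and B here too. Sparc alone gave 556, 945 and 272 FPKM of the anterior sums and 245, 182 and 449 FPKM of the posterior ones. By mean 7 of the 10 were higher anteriorly and 3 posteriorly. In all 3 embryos 0 of them were higher anteriorly, where 8.25% of genes tested were. The 12 epiblast markers summed to 72.9, 169 and 405 FPKM anteriorly, against 357 to 567 FPKM posteriorly, and Tdgf1 and Dppa4 were at 0 in all 3 anterior libraries. The library labelled posterior C, with 537 FPKM of epiblast markers, had Crabp2 at 0.940 FPKM. In that library Crabp1 and Rbp4 were at 0, and 8 of 12 visceral endoderm markers were above 0, with a sum of 135 FPKM. The part of these cell types in the levels of Crabp1 and Crabp2 was not tested.

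The receptors were low throughout. Rarg (chromosome 15, 102234938 to 102257522), which encodes the RAR best known from early embryonic tissue, was the only member above 0 in all 6 libraries. Anterior pieces held 0.430, 0.305 and 1.40 FPKM of it, and their posterior partners 6.26, 0.355 and 2.20 FPKM. Posterior A was the high library at about 109 reads, anterior A and B had about 3 reads each, and the domains overlapped. The posterior value exceeded the anterior one in each embryo, but in embryo B the difference was 0.05 in log2 and rested on about 8 against 3 reads.

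Rara (chromosome 11, 98927800 to 98974942), the more widely expressed RAR, measured 0.116, 1.40 and 0 FPKM anteriorly and 4.13, 0.0409 and 0 FPKM posteriorly. Its 2 lowest values above 0, in anterior A and posterior B, corresponded to about 1 read each. Posterior A (about 82 reads) and anterior B (about 18 reads) were the only libraries with more, so the 2 embryos with any Rara ran in opposite directions. Rxra (chromosome 2, 27676445 to 27763319) was at 0.237 FPKM in anterior B and at 0 in anterior A and the library labelled anterior C. Its posterior values were 1.70, 1.30 and 0 FPKM, from about 49 reads in each of A and B. The domains overlapped for 5 of 5 members, where 12.3% of genes tested had no overlap with posterior levels higher and 3.77% with anterior levels higher. Rxra and Rara were at 0 in both libraries of embryo C, where 3 reads would be about 0.159 and 0.146 FPKM of Rxra.

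Set against each other within a library, the binding proteins exceeded the receptors in 5 of 6 libraries. The mean of Crabp1 and Crabp2 minus the mean of the 3 receptors, in log2(FPKM + 1), was 3.62, 2.29 and 2.27 anteriorly and 2.27, 3.46 and -0.08 posteriorly. The library labelled posterior C stood apart, with a binding protein mean of 0.48 and a receptor mean of 0.56, beside 4.03 and 0.57 in posterior B. The posterior minus anterior change of this difference was -1.35, 1.17 and -2.35 in embryos A, B and C, with a mean of -0.84 ± 1.82 (SD, n = 3 embryos), a spread that exceeds the mean. Without embryo C the mean was -0.09.

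**Figure D3:**
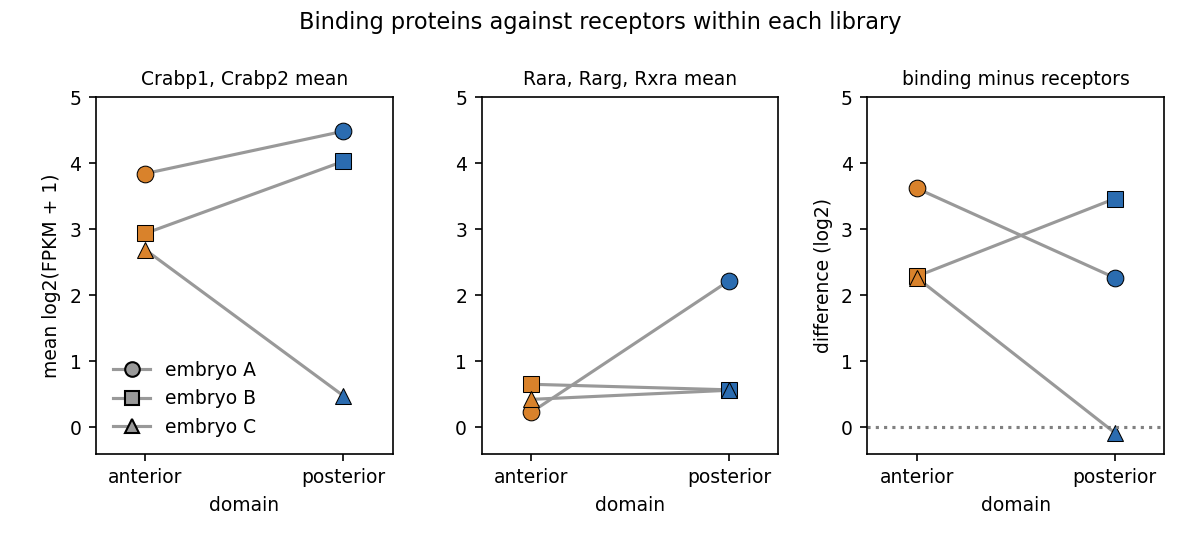
Mean log2(FPKM + 1) of the binding protein genes (left) and of the 3 receptor genes (middle), and the left minus the middle value (right). Orange marks anterior and blue posterior pieces, and a line joins the pieces of 1 embryo. The lines of the right panel cross, at -1.35, 1.17 and -2.35 for embryos A, B and C.

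By domain, the mean level in log2(FPKM + 1) was 4.70 ± 3.72 in the anterior and 1.84 ± 1.63 in the posterior libraries for Crabp1 (SD, n = 3). It was 1.61 ± 2.80 and 4.15 ± 2.88 for Crabp2, 0.47 ± 0.69 and 0.81 ± 1.34 for Rara, 0.72 ± 0.48 and 1.66 ± 1.21 for Rarg, and 0.10 ± 0.18 and 0.88 ± 0.77 for Rxra. The posterior minus anterior difference was -2.85 ± 2.37 for Crabp1, 2.54 ± 5.62 for Crabp2, 0.33 ± 1.73 for Rara, 0.94 ± 1.23 for Rarg and 0.78 ± 0.73 for Rxra (SD over 3 embryos). The SD over embryos exceeded the difference for Crabp2, Rara and Rarg. Without embryo C the difference was -4.02 for Crabp1 and 5.75 for Crabp2, and without embryo A it was -1.65 and 0.53. Without embryo A it was 0.23 for Rarg, 0.45 for Rxra and -0.60 for Rara, and without embryo B it was 1.33 for Crabp2 and 1.10 for Rara. With the embryo as a block, limma's standard error was 1.10 for Crabp1, 1.76 for Crabp2 and 0.92 for Rarg, while Rara and Rxra, with means of 0.947 and 0.541 FPKM, fell under the 1 FPKM needed to enter the fit, so 3 of the 5 members passed the filter on low values.

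Of the 10914 genes tested, 0% passed limma's adjusted threshold of 0.05 in either direction (0.211 was the smallest adjusted p). The 3 members in the fit are among these genes, so the outcome is not particular to them. With an unadjusted p below 0.05, limma gave 7.24% of genes with the posterior and 0.788% with the anterior domain higher. Crabp1 had its higher level anteriorly in 3 of 3 embryos, as did 8.25% of genes tested, and Rarg had it posteriorly in 3 of 3, as did 21.5%. For Crabp1 the direction in embryo C rested on about 1 read against 0. On average 4 of the 5 members were higher in the posterior domain, where 64.9% of genes tested were. The median gene tested was 0.43 higher in the posterior domain in log2. Relative to the median gene of each library, the difference was -3.34 for Crabp1, 2.05 for Crabp2, 0.45 for Rarg and 0.29 for Rxra, and that of Rara turned to -0.16.

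Differences among individuals, which are separate from the domain comparison, were tested with limma's F test. Crabp1 averaged 5.05, 4.49 and 0.27 in log2(FPKM + 1) in embryos A, B and C, with an unadjusted p of 0.0109 and an adjusted p of 0.996, so it did not pass. Rarg, at 1.69, 0.41 and 1.47, and Crabp2, at 3.28, 2.47 and 2.90, had adjusted p-values of 0.996 and 0.998. Of all genes tested, 0% passed this F test at the adjusted threshold and 2.77% had an unadjusted p under 0.05.

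The rest of the pathway was read from a list of 54 genes in 7 roles. Of these 41 were in the table and 33 in the fit, and none passed limma's adjusted threshold in either direction. By mean, 19 were higher in the posterior and 14 in the anterior domain, where 64.9% of all genes tested were higher posteriorly. Their median difference was 0.16, beside 0.43 over all genes tested. Hoxb1 was the only one with an unadjusted p under 0.05 (limma p 0.0448, adjusted p 0.617), or 1 of 33, beside 7.24% and 0.788% of all genes tested in the posterior and anterior directions.

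Among the other receptors, Rxrb, an RXR of broad expression, had the highest FPKM of the 6 RAR and RXR genes in 5 of the 6 libraries, anterior A being the exception. Its levels were 0, 10.4 and 12.7 FPKM anteriorly and 9.32, 4.09 and 3.04 FPKM posteriorly. It made up 38.8% to 90.1% of the summed FPKM of the 6 receptor genes where it was above 0. Rarb, itself a classical target of retinoic acid, was at 4.39 FPKM in anterior B and 2.52 in posterior A, at 0.0467 in posterior B and at 0 in the other 3 libraries. Anterior B and posterior A were also the libraries with Rara above 1 FPKM. Rxrg was above 0 in posterior A and B alone, at 0.105 and 1.22 FPKM. Anterior A, the shallowest library, listed only Rara and Rarg above 0, with a sum of 0.545 FPKM beside 205 FPKM of Crabp1.

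Cyp26a1, the enzyme that breaks retinoic acid down and a target it induces, was above 30 FPKM in every library. Anteriorly it measured 166, 244 and 34.9 FPKM, and posteriorly 86.7, 64.7 and 354 FPKM. Its highest value fell in the library labelled posterior C, where Crabp1 was at 0 and Crabp2 at 0.940 FPKM, and its lowest in the library labelled anterior C. The domains overlapped, with a difference of 0.16 ± 0.96 (SE) in log2 and a limma adjusted p of 0.976. Cyp26c1, a related enzyme, stayed at or under 1.56 in log2(FPKM + 1).

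RAR and RXR pairs are known to bind direct repeats, and promoters were searched for these since members and known targets share the pathway. A direct repeat was searched as 2 units of 6 bases, AGGTCA with A or G as the first and G or T as the third base, in the same direction, on either strand, with 1, 2 or 5 bases between them (DR1, DR2 and DR5, where a unit could serve in more than 1 repeat). The windows are those of RefSeq on GRCm38, 250 bases before to 50 after a gene's start. DR5 occurred in 32 of 32851 windows (0.0974%), DR1 in 73 (0.222%) and DR2 in 88 (0.268%). Of 29 list genes with a window, 2 held a DR5, Cyp26a1 and Rarb, and none held a DR1 or DR2. Of the members, 4 had windows (9 in all, none for Crabp2), and none of these held a DR1, DR2 or DR5. The window of Crabp1 is shown with the 2 that hold a repeat, each 5′ to 3′ along the gene's strand, with the repeat units in capitals.
Cyp26a1, chr19:37697558-37697857, plus strand: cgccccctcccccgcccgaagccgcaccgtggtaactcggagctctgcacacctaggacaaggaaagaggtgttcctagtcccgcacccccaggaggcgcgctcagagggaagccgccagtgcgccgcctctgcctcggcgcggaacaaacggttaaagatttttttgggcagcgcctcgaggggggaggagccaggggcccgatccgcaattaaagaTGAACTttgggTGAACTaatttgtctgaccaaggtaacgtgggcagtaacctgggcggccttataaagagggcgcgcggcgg
Rarb, chr14:16575427-16575726, minus strand: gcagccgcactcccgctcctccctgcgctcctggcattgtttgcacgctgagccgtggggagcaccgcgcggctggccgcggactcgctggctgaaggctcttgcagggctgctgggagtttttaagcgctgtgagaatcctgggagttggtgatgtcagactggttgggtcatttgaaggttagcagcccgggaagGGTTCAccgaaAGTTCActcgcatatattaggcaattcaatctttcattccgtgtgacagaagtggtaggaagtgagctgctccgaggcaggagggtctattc
Crabp1, chr9:54764498-54764797, plus strand: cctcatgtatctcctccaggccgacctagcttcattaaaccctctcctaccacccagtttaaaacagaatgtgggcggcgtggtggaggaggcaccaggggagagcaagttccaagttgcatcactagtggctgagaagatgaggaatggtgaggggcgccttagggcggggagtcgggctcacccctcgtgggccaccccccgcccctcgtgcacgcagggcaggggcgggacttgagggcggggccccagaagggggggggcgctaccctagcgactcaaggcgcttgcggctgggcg
The repeat of Rarb begins 53 bases before the start on the gene's strand, and that of Cyp26a1 begins 32 bases before it on the opposite strand. Rarb and Cyp26a1 share this repeat, yet Cyp26a1 was above 30 FPKM in all 6 libraries and Rarb was at 0 in 3 of them. A match is a description of letters, and no binding was measured here.

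Among transport genes, Rbp4 differed by -1.65 ± 0.82 (SE), with a limma adjusted p of 0.631. Fabp5, a fatty acid binding protein that can also carry retinoic acid to another nuclear receptor, lay between 3.73 and 5.46 in log2(FPKM + 1) in all 6 libraries. Neither Stra6 nor Aldh1a2 was listed under that name among the 12826 genes, so no level is given for them.

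Genes of the steps that make retinal and turn it back had a higher posterior mean in 5 of 6 cases, beside 64.9% of all genes tested, with a median difference of 1.04. None passed the threshold, and 0 of the 6 were higher posteriorly in all 3 embryos, beside 21.5% of genes tested. Rdh10, which oxidises retinol, measured 3.13, 1.32 and 0.09 in log2(FPKM + 1) anteriorly and 1.58, 3.64 and 2.18 posteriorly. Dhrs3, which reduces retinal back to retinol and is induced by retinoic acid, was at 1.60, 1.28 and 2.36 against 5.83, 3.23 and 0. Posterior A held the highest Dhrs3, as it held the highest Crabp2, Rara, Rarg and Rxra. Adh5 and Rdh11, enzymes with broader substrates, differed by 0.32 ± 0.70 and 1.13 ± 1.01 (SE).

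The coregulators that receptors recruit were present throughout, with 12 of 12 above 0 in every library, where 5.34% to 27.2% of all genes were at 0. By mean 6 were higher in each domain, beside 64.9% of all genes tested higher posteriorly. Their median difference was 0.04, beside 0.43 over all genes tested. Ncoa3, a coactivator, lay between 6.39 and 8.17 in log2(FPKM + 1), Crebbp, an acetyltransferase, between 5.30 and 6.99, and Ncor1, a corepressor of unliganded receptors, between 5.41 and 6.34. The other partners of RXR were low or uneven: Nr1h2, the oxysterol receptor LXRβ, measured 5.23, 1.79 and 2.77 anteriorly and 3.26, 0.42 and 0 posteriorly (difference -2.03 ± 0.97, limma adjusted p 0.624), while Thra and Nr4a1 stayed at or under 2.52.

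Known target genes numbered 9, of which 7 entered the fit, with 5 higher in the posterior domain by mean, beside 64.9% of all genes tested, and a median difference of 1.23. Of the 7, 1 was higher posteriorly in all 3 embryos, beside 21.5% of genes tested. Hoxb1, a hindbrain and posterior mesoderm factor, measured 0 in all 3 anterior libraries and 1.16, 1.78 and 3.11 posteriorly, with a difference of 2.02 ± 0.87 (SE). Primitive streak markers were likewise higher posteriorly, at a summed 0.127 to 44.8 FPKM in the anterior and 240 to 272 FPKM in the posterior libraries. Within the posterior libraries their sums fell from A to C (272, 259 and 240 FPKM) while Hoxb1 rose. Their part in the level of Hoxb1 was not tested. Btg2, a growth inhibitor, was at 1.89, 4.10 and 6.92 against 6.65, 6.32 and 5.72, with anterior A lowest and the library labelled anterior C highest. Meis2, a cofactor of Hox proteins, differed by -0.53 ± 1.01 (SE).

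**Figure D4:**
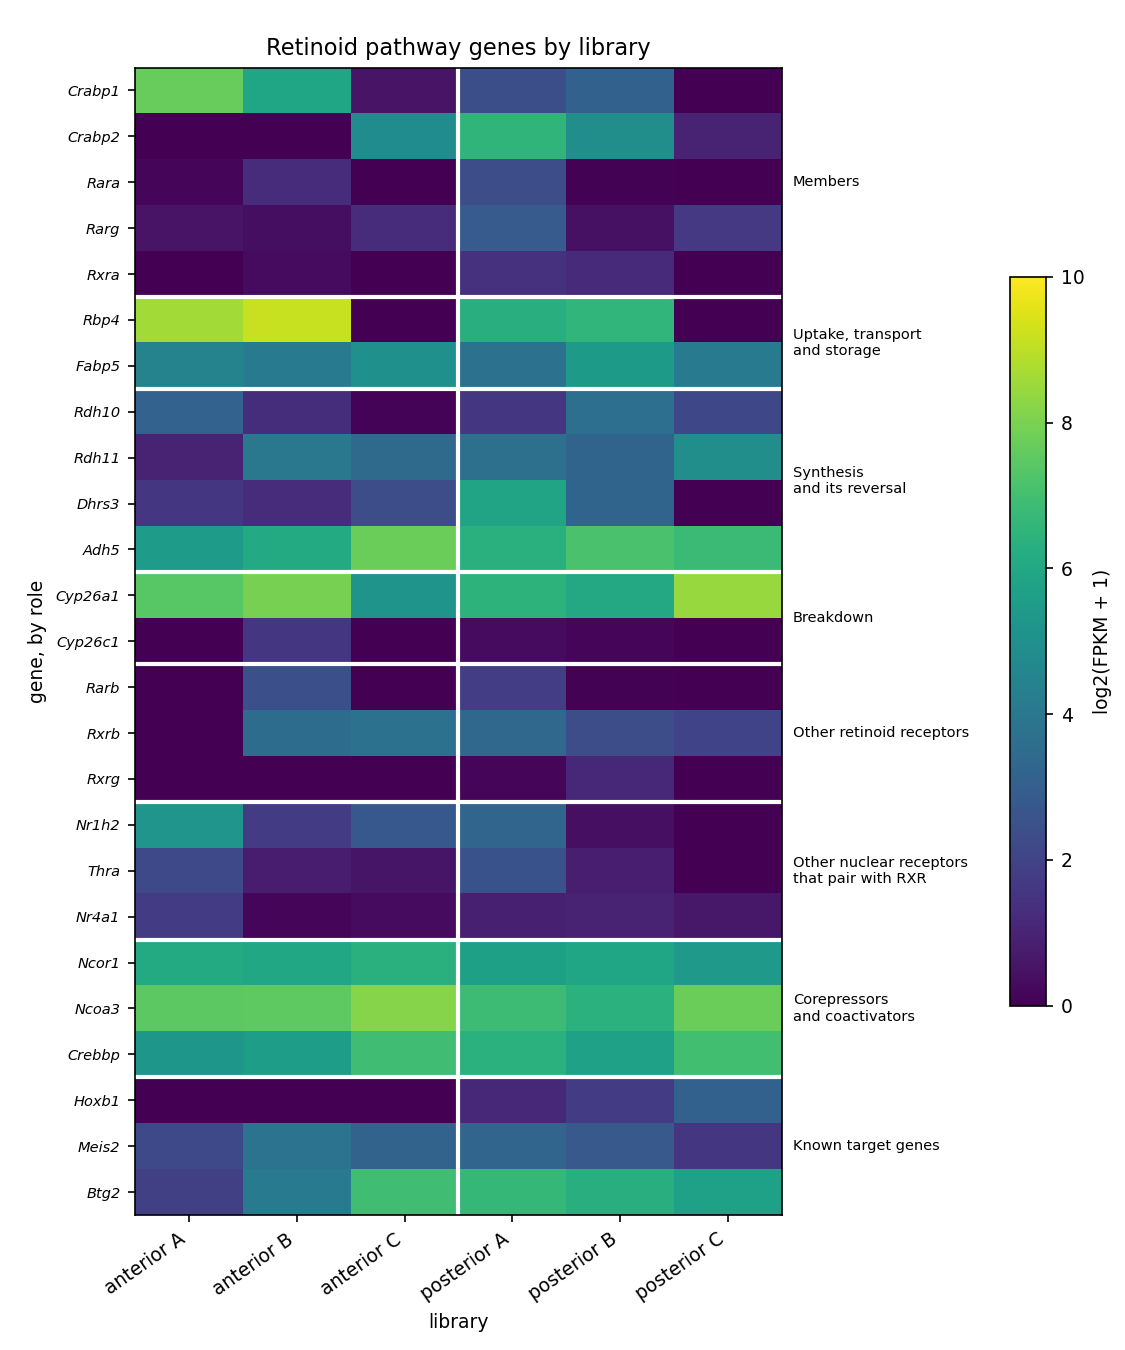
Heat map of log2(FPKM + 1) (colour scale from 0 to 10) for the 5 members and the pathway genes named in the text, in rows by role, over the 6 libraries in columns (3 anterior, then 3 posterior). No RAR or RXR row exceeds 3.78, Cyp26a1 and the coregulators Ncoa3, Crebbp and Ncor1 are bright in every library, and Crabp1 and Crabp2 are bright in different libraries.

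The genes most like each member were ranked by the Pearson correlation of log2 values over the 6 libraries, among the 10914 genes tested. The 6 libraries differ in depth, which all genes of a library share. The 3 highest of so many correlations over 6 libraries are also high through the selection itself, so these values are descriptions. Crabp1 was most like Large, Loxl3 and Mettl7a1 (r 0.992 for each). Large, a glycosyltransferase of dystroglycan, measured 5.30, 3.93 and 0.18 anteriorly and 2.20, 2.25 and 0 posteriorly, the same order of libraries as Crabp1. Crabp2 was most like Elac2, a tRNA-processing enzyme, Mapk4, an atypical MAP kinase, and Ranbp17 (r 0.992 for each). Elac2 measured 0, 0 and 2.19 anteriorly and 3.47, 2.43 and 0.12 posteriorly. The receptors' nearest genes were Hvcn1, Tmem81 and Bdh2 for Rara (r 0.986 to 0.991), Dcxr, Lypla2 and Gng5 for Rarg (r 0.960 to 0.973), and 2010320M18Rik, Lysmd2 and Bscl2 for Rxra (r 0.996 to 0.999). No gene was among the nearest 3 of more than 1 member.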

How the data were processed

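Bulk RNA was measured in 6 Smart-seq2 libraries, an anterior and a posterior piece of 3 ETX-embryos. Per the labels' protocols, cDNA had 18 cycles of preamplification, and reads were mapped to mouse Ensembl version 38.77 and counted with HTSeq-count. TopHat2 2.0.4, Cufflinks 2.0.2 and the mm10 build appear in the submitters' processing notes. The tool behind the deposited values was not given in the sources used here. Deposited were log2 values, log2(FPKM + 1), of 12826 genes, and the log2 scale and offset of 1 were read from the values. They were used unchanged.

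The 10914 genes averaging 1 FPKM or more over the 6 libraries were fitted with limma 3.58.1 in R 4.3.3, with a mean-variance trend and the embryo as a block, two-sided, with Benjamini-Hochberg adjustment and a threshold of 0.05. The fit was tested on simulated data. Both pieces come from 1 individual, per the series' design text, which is where the pairing comes from. Deviations of paired pieces from group means correlated at -0.07, 0.04 and -0.03 in A, B and C. Nothing states that embryos came from separate cultures, so p-values speak only for these samples. Each gene's variance in limma is drawn partly from genes of similar level (2 residual and 7.50 prior degrees of freedom). A standard error is thus not a gene's own spread over embryos: that of Crabp2 was 1.76, beside an SD over embryos of 5.62. Differences understate the change of low genes. Approximate reads are FPKM times the longest GENCODE M21 transcript over the 1-read step. They ignore how the authors' lengths differed and cover counting error only. Relative depth came from the most common ratio of values under 1 FPKM to those of anterior A, shared by 6.68% to 13.9% of genes (tolerance 0.01 in log2).

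Members, lists and tests were chosen with earlier results of these data known. Genes named are the members, T, 8 fixed retinoid genes, the 3 highest of each role, any past the threshold, the 3 most like each member and list markers beside a result. Hoxb1 was added after its values were seen. Some genes of the lists are not reported here. Promoter windows and gene positions came from RefSeq, both on GRCm38. Markers of trophoblast and neural plate were also read. Trophoblast markers summed to 336 to 450 FPKM in the anterior and 316 to 643 FPKM in the posterior libraries, and neural plate markers to 4.76 to 31.7 and 19.1 to 49.8 FPKM. Of the trophoblast sums, Krt8 gave 134, 151 and 41.2 FPKM anteriorly and 61.6, 40.7 and 123 posteriorly. Krt18 gave 142, 257 and 140 FPKM anteriorly and 175, 192 and 429 posteriorly. Elf5, Eomes and Esrrb were at 0 in anterior A and B. Alternatives were another pseudocount (0.1), no filter, 2 other scalings, no block, and leaving out each embryo or anterior A.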

Additional observations from a re-analysis of the deposited data

How the results depend on the processing

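The count of 0 genes past limma's adjusted threshold between domains was 0 under every alternative run, the fit with no replicate block included, where 912 and 119 genes had an unadjusted p under 0.05 in the posterior and anterior direction, against 790 and 86 with the block. Pairing therefore changed no call. Among embryos the count of 0 became 3 with no filter, 3 after quantile normalization and 3 after centring on the library median, and it ran from 0 to 4 when single embryos were left out (4 without embryo A). The cause was not tested. Of unadjusted calls between domains 90.2% were higher in the posterior domain, 65.6% after quantile normalization (527 and 276 genes) and 59.1% after centring (429 and 297). Leaving out embryo A, B or C gave 348 and 99, 405 and 36, or 898 and 140 such genes. Dropping only anterior A in the unblocked fit gave 617 and 191. The direction of Crabp1, Crabp2, Rarg and Rxra by mean was the same under every alternative, at -4.02 to -1.36 for Crabp1 and 0.53 to 5.75 for Crabp2. Dropping the block alone cannot change a mean difference in this balanced design. The constant direction by mean does not hold for each embryo: Crabp2 differed by 6.55, 4.94 and -3.89 in A, B and C. Rara turned to -0.16 after centring and to -0.60 without embryo A. Rxra reached 2.08 with a pseudocount of 0.1. Binding proteins minus receptors ran from -1.85 to -0.09 when single embryos were left out, and was -0.86 with a pseudocount of 0.1 and -0.72 after quantile normalization. Depth limits members of both kinds: 5 of 18 receptor values and 3 of 12 binding protein values are listed at 0, and others rest on about 1 to 8 reads.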

Other observations

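Other nuclear receptors were read after the values were seen, as a description. Nr2f2, the orphan receptor COUP-TFII that can bind the same direct repeats as retinoid receptors, measured 4.89, 5.83 and 6.24 in log2(FPKM + 1) anteriorly (A, B, C) and 3.88, 2.55 and 0.22 posteriorly. The domains did not overlap, as for 3.77% of genes tested with anterior levels higher. Its difference was -3.44 ± 1.07 (SE), with a limma adjusted p of 0.551. Nr6a1, an orphan receptor that represses pluripotency genes, was above 2.6 in all 6 libraries, at 4.68, 4.92 and 6.25 against 4.56, 4.65 and 2.69. Esrrb, an orphan receptor of naive pluripotent and trophoblast cells, was listed at 0 anteriorly and measured 1.28, 2.56 and 2.78 posteriorly (difference 2.21 ± 0.87, limma adjusted p 0.608). Of genes tested, 12.3% likewise had no overlap with posterior levels higher. Other receptors read differed by 0.01 (Nr2f6), 0.71 (Nr2c1), 0.88 (Nr2c2), 1.61 (Nr5a2), -1.44 (Nr3c1) and -0.41 (Nr1d2). None of these passed the adjusted threshold.

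CRABPs belong to the family of intracellular lipid-binding proteins. Fabp3, a fatty acid carrier of that family, measured 7.08, 8.25 and 1.40 anteriorly and 6.63, 6.11 and 8.05 posteriorly, lowest in the library labelled anterior C. Fabp7 was above 0 in posterior A and B alone, at 1.08 and 3.45.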
